A study of Mus musculus and Rattus norvegicus with 12 samples.

Results

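Fibronectin (Fn1), the thrombospondins Thbs1 and Thbs2, tenascin C (Tnc), periostin (Postn), vitronectin (Vtn), osteopontin (Spp1) and fibrillin-1 (Fbn1) were followed across endoderm and embryonic stem cell lines of mouse and rat. These 8 genes, of 24411 gene symbols in the mouse tables and 17315 in the rat tables, were matched by symbol, and all 8 had a row in both species. They were chosen on their levels in these lines, with Fn1 close to 0 in pXEN alone among the groups, so their levels and differences between mouse groups are a description and carry no test. RNA sequencing covered 12 separately derived lines from blastocysts. All mouse lines came from ICR mice. They were 3 pXEN lines, pXEN2, pXEN4 and pXEN6 (passages 17 to 21), 3 XEN lines, XEN1, XEN2 and XEN5 (passages 9 to 21), and 2 lines of embryonic stem (ES) cells, ES2 and ES3 (passages 14 to 16). The rat XENP lines were CX1 and MAX8 from WKY rats and MAX2 and MAX3 from F344 rats (passages 10 to 40). In mouse, pXEN2, XEN2, XEN5 and ES2 were male and pXEN4, pXEN6, XEN1 and ES3 female, so sex was not balanced between pXEN and XEN. In rat, CX1 and MAX3 were male and MAX2 and MAX8 female. No line carries a transgene or treatment in the labels, and each was sampled after 2 days of culture. XEN lines stand for the primitive endoderm, a layer of the blastocyst that forms the endoderm of the yolk sac, and pXEN cells are endoderm lines kept in the culture used for rat XENP cells. XEN lines were grown on mouse embryo fibroblast feeder cells with serum, and ES lines with serum, LIF and the kinase inhibitors called 2i. Culture therefore changed together with cell type, and their shares in a difference cannot be told apart.

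Fibronectin and vitronectin are adhesive glycoproteins that cells grip through integrins, often at a stretch of arginine, glycine and aspartate called RGD. Thrombospondins, tenascin C, periostin and osteopontin are matricellular proteins, which sit in the matrix and tune adhesion and growth factor signals rather than carry load, while fibrillin-1 builds the microfibrils that hold elastin and latent TGF-beta. In the early embryo, fibronectin lies in the matrix between the primitive endoderm and its neighbours, and parietal endoderm lays down a thick basement membrane.

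Gene counts summed to 2661691 to 3483069 in mouse and 1047535 to 1242937 in rat libraries. Of these, reads of the rRNA precursor Rn45s were 20.7% to 50.1% in mouse and 0.0082% to 0.0312% in rat, so CPM, the count per 1000000 counts, is not on one scale in the species. Summed CPM of 12 primitive endoderm markers lay between 11900 and 18860 in pXEN, between 9510 and 25970 in XEN, and at 87.2 and 164 in ES. The 10 of these markers with a rat row summed to between 20350 and 39780 in XENP. Summed CPM of 8 pluripotency markers was 28.4 to 63.8 in pXEN, 0.278 to 0.528 in XEN, and 4644 and 4580 in ES. The labelled cell types thus carried their markers. In rat CX1 stood apart, with a summed level of 163 CPM for the 5 pluripotency markers that have a rat row, against 6.25 to 8.32 in the other 3 lines. Only 1 of these 5 had counts in rat, and Nanog, Sox2, Esrrb and Fgf4 were at 0, so this sum is the level of 1 gene.

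The RGD site is the feature that groups several of these proteins for their receptors, and it is shown here with its codons. Codons for arginine, glycine and aspartate stood in frame in 6 of the 8 members and were not found in Tnc or Postn, read from 1 GENCODE vM21 transcript a gene (GRCm38). Over all measured genes with a complete coding sequence, 1492 of 19903 (7.5%) held such codons, and longer proteins have more chances to hold them. Capitals mark the 9 bases of the RGD codons, with 9 bases on each side, on the coding strand. The first Fn1 site lies in exon 30 at chr1:71606737-71606763 (minus strand), that of Spp1 in exon 7 at chr5:104439472-104439498 (plus strand) and that of Fbn1 in exon 38 at chr2:125345964-125345990 (minus strand). A further Fn1 match lies in exon 40. The stretches of Thbs1 (chr2:118122680-118122899, plus strand), Thbs2 (chr17:14671475-14673144, minus strand) and Vtn (chr11:78499619-78499723, plus strand) are split by an intron, which is left out of the bases shown.
Fn1: gtcactggcCGTGGGGACagtccagca
Vtn: caagtaacgCGGGGGGACgtgttcact
Spp1: cccaacggcCGAGGTGATagcttggct
Fbn1: atccgacccCGGGGAGACaatggagat
Thbs1: ggtgatggcCGAGGTGACgcctgcaaa
Thbs2: ggtgacggcCGAGGTGACatttgtaaa

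Fn1 (chr1:71585520-71653200, minus strand, GRCm38) was close to 0 in pXEN and abundant in XEN and ES. It had 5, 1 and 0 counts in pXEN2, pXEN4 and pXEN6, which is 1.65, 0.285 and 0 CPM of the TMM-scaled library. In XEN1, XEN2 and XEN5 it had 603, 586 and 602 counts, or 235, 163 and 159 CPM. In ES2 and ES3 it had 354 and 310 counts, or 146 and 121 CPM. No pXEN line came near a XEN or ES line, and XEN and ES lines lay close together without overlap. The mean was 0.643 ± 0.879 CPM in pXEN and 186 ± 42.8 CPM in XEN (SD, n = 3 each), a log2 fold change of -8.17 (SE 0.54). Against the 133 ± 17.5 CPM of ES (SD, n = 2), the log2 fold change of pXEN was -7.69 (SE 0.55). Between XEN and ES it was 0.48 (SE 0.38). Of the 6 pXEN counts 5 came from pXEN2. The fitted value was -9.99 against XEN and -9.51 against ES without pXEN2, and -7.59 and -7.11 without pXEN6, so its size moves with a handful of reads. Within a library, Fn1 stood above 18.3% and 4.33% of detected genes in pXEN2 and pXEN4, above 95.1% to 97.1% in XEN and above 94.1% to 94.9% in ES.

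**Figure D1:**
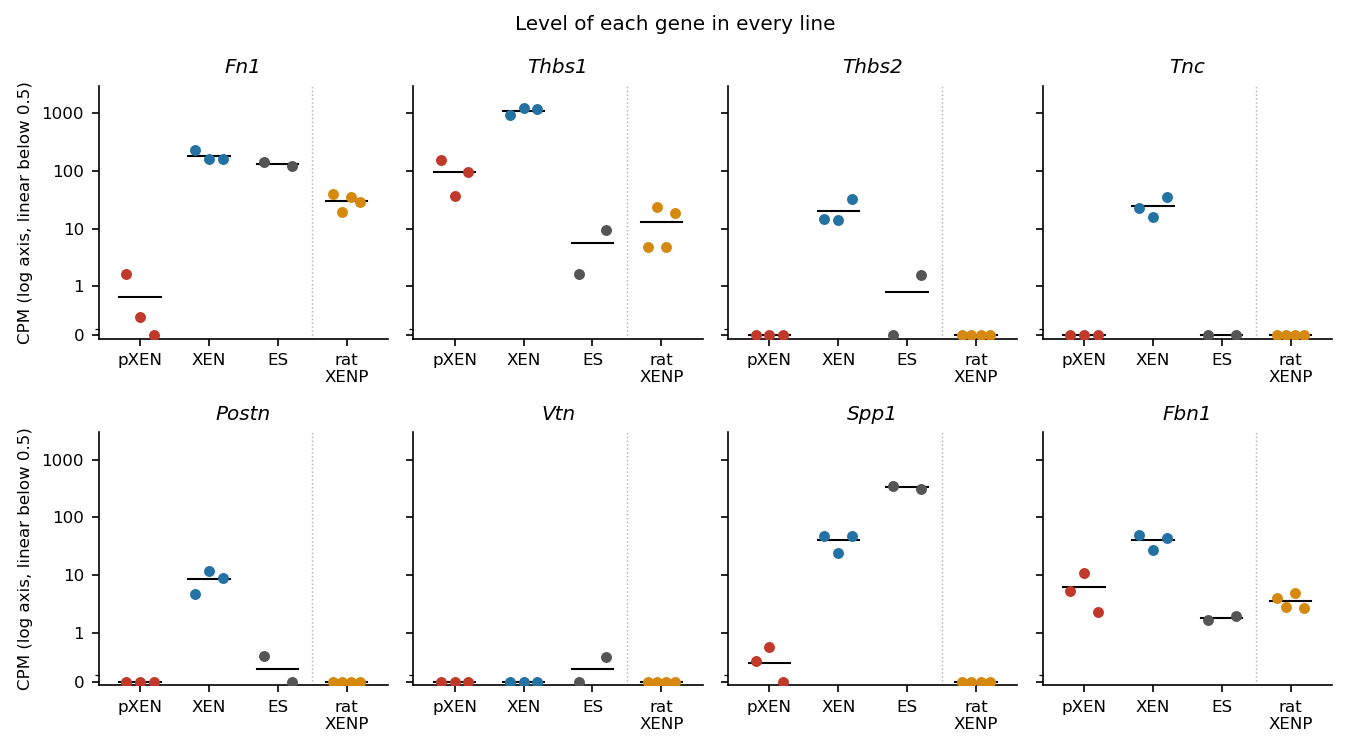
Level of each of the 8 genes in every line, as CPM on an axis that is logarithmic above 0.5 and linear below it; points are lines, bars are group means, and the dotted line separates mouse from rat, whose CPM are on another scale. Fn1 lies between 0 and 1.65 CPM in the 3 pXEN lines, against 159 to 235 in XEN and 121 and 146 in ES, while Spp1 is highest in ES.

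Thbs1 (chr2:118111876-118127133, plus strand), a secreted protein that binds CD36, CD47 and heparan sulphate and can activate latent TGF-beta, was the member with the highest level in both endoderm groups of mouse. Its counts were 480, 128 and 333 in pXEN2, pXEN4 and pXEN6, against 2402, 4456 and 4527 in XEN1, XEN2 and XEN5. ES2 and ES3 had 4 and 24 counts. The 3 groups did not overlap, and the order was XEN, then pXEN, then ES. Mean levels were 96.7 ± 60.8 CPM in pXEN and 1124 ± 164 CPM in XEN (SD, n = 3 each), with 1.65 and 9.35 CPM in ES2 and ES3. The log2 fold change was -3.54 (SE 0.59) for pXEN over XEN, 4.11 (SE 0.80) for pXEN over ES and 7.65 (SE 0.90) for XEN over ES. Without ES3, which held 24 of the 28 ES counts, pXEN stood 5.85 and XEN 9.38 above ES on the log2 scale. Thbs1 ranked above 99.7% to 99.8% of detected genes in XEN, and above 71.8% to 94.6% in pXEN. Every pXEN line held at least 128 Thbs1 counts, and no other member had more than 38 in any of them.

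Thbs2 (chr17:14665500-14694235, minus strand), a relative of Thbs1 that limits vessel growth and collagen fibril size, had 0 counts in each pXEN line. It had 37, 50 and 123 counts in XEN1, XEN2 and XEN5, and 0 and 4 in ES2 and ES3. XEN was the group that carried the gene, with 20.3 ± 10.6 CPM (SD, n = 3), and XEN5 had the highest level at 32.5 CPM. The level was at least 67.8-fold lower in pXEN than in XEN, counted against 3 counts over the pXEN group (0.299 CPM). Between XEN and ES the log2 fold change was 4.61 (SE 0.89). It was 3.68 without ES2, and without ES3, whose 4 counts are all the ES counts of the gene, no fitted value is given.

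Tnc (chr4:63959785-64047015, minus strand), a multi-armed matrix glycoprotein of embryonic mesenchyme and wounds, had 0 counts in pXEN2, pXEN4 and pXEN6, and 0 in both ES lines. It had 59, 57 and 133 counts in XEN1, XEN2 and XEN5, or 23.0, 15.9 and 35.1 CPM. The mean of 24.7 ± 9.75 CPM in XEN (SD, n = 3) puts pXEN at least 82.5-fold lower than XEN, and XEN at least 41.1-fold higher than ES. Postn (chr3:54361109-54391037, plus strand), which supports collagen cross-linking in connective tissue and binds alpha v integrins, followed the same order at a lower level. It had 0 counts in all 3 pXEN lines, 12, 43 and 34 in XEN1, XEN2 and XEN5, and 1 and 0 in ES2 and ES3. pXEN was at least 28.6-fold lower than XEN, and the ratio of XEN over ES was 44.7 with an exact 95% counting interval of 7.82 to 1786. These intervals and lower bounds hold counting error alone, taken over the lines of a group together, and leave out the spread between lines. Reads from amplified libraries can also come from 1 molecule, so the counting error itself may be larger.

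Spp1 (chr5:104435118-104441050, plus strand), a phosphorylated ligand of alpha v beta 3 integrin and CD44, was the member with an order of its own. Its counts were 1, 2 and 0 in pXEN2, pXEN4 and pXEN6, against 121, 88 and 181 in XEN1, XEN2 and XEN5 and 874 and 814 in ES2 and ES3. All 3 groups were separate, with ES highest and pXEN lowest. The level was 0.329, 0.569 and 0 CPM in the pXEN lines, 39.8 ± 13.3 CPM in XEN (SD, n = 3), and 338 ± 29.8 CPM in ES (n = 2). The ratio of XEN over pXEN was 131 (exact 95% counting interval 44.6 to 639), and that of ES over pXEN was 1130 (386 to 5484). XEN lay below ES by a log2 fold change of -3.09 (SE 0.33). Spp1 and Fn1 were thus the members with 6 counts or fewer over the pXEN lines and at least 310 in each ES line.

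Fbn1 (chr2:125300594-125507993, minus strand) had 16, 38 and 8 counts in pXEN2, pXEN4 and pXEN6. It had 125, 99 and 164 counts in XEN1, XEN2 and XEN5, and 4 and 5 in ES2 and ES3. The XEN lines were highest and did not overlap with the others. Levels were 6.13 ± 4.33 CPM in pXEN and 39.9 ± 11.0 CPM in XEN (SD, n = 3 each), with 1.65 and 1.95 CPM in ES2 and ES3. The log2 fold change was -2.69 (SE 0.46) for pXEN over XEN, 1.75 (SE 0.68) for pXEN over ES and 4.44 (SE 0.65) for XEN over ES. Without pXEN4 the first was -3.40 and the second 1.04. Vtn (chr11:78499091-78502324, plus strand), a plasma protein made mainly by liver, had 1 count in ES3 and 0 in the other 7 mouse lines, and no fold is given for it.

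Of the 8 members, 7 passed the filter on low counts that set which of the mouse genes were tested, and Vtn did not. In pXEN over XEN the threshold of adjusted p under 0.05 (edgeR's quasi-likelihood test, Benjamini-Hochberg adjusted) was passed downward by 7 of the 7, where 3.63% of all 10895 genes tested passed it downward and 0.918% upward. In pXEN over ES 1 member (Thbs1) was past it upward and 2 (Fn1 and Spp1) downward, where 18.2% of all genes passed upward and 17.8% downward. In XEN over ES 5 members (Thbs1, Thbs2, Tnc, Postn and Fbn1) were past it upward and Spp1 downward, where 20.7% passed upward and 17.8% downward. The members were chosen on these same contrasts and most passed the filter through the group where they are high, so nothing is read from these shares. Each pair of comparisons shares a group of lines.

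**Figure D2:**
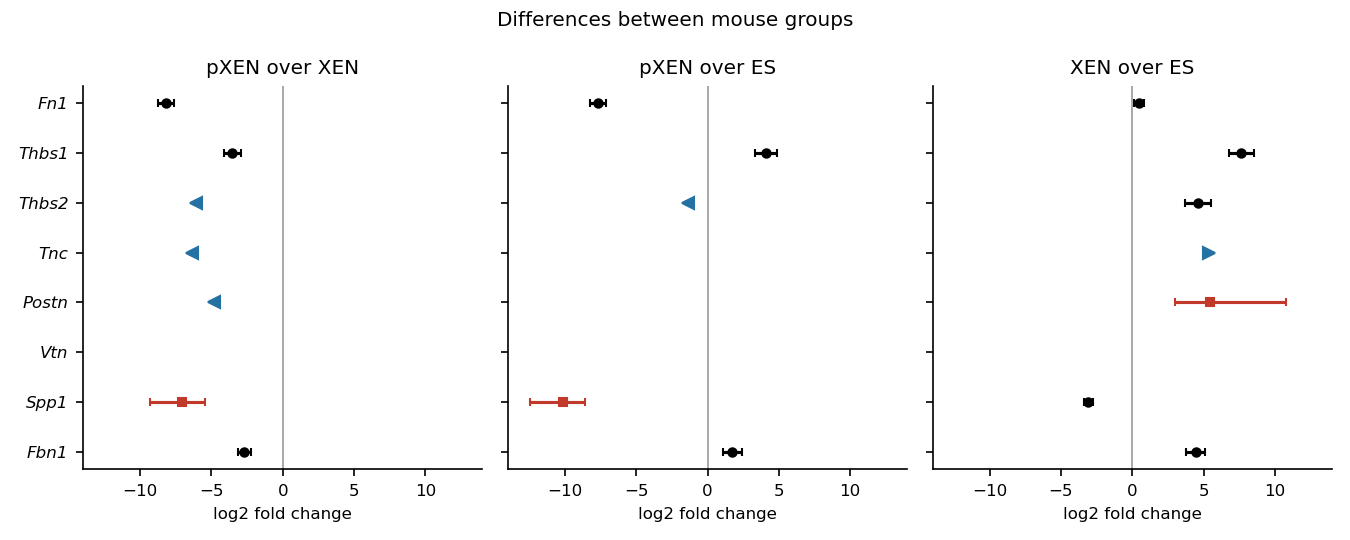
Difference of each gene between mouse groups on the log2 scale; circles are fitted log2 fold changes with their SE, triangles are lower bounds on the size of a difference against a group with 0 counts, and squares are count ratios with exact 95% counting intervals. Members without a mark had too few counts for a fold; Fn1 is at -8.17 for pXEN over XEN and at 0.48 for XEN over ES.

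Markers of fibroblasts, the feeder cells of the XEN cultures, were looked at beside these levels. Reads fell on 6 of 15 such markers in pXEN, on 14 in XEN and on 8 in ES. Their summed level was 3.62 to 10.0 CPM in pXEN, 209 to 289 in XEN, and 12.3 and 11.7 in ES. The 7 defining markers summed to 3.29 to 7.75 CPM in pXEN, 127 to 187 in XEN, and 6.99 and 5.85 in ES. Among these 7, Col1a2, Col3a1, Thy1, Twist2 and Prrx1 were at 0 in pXEN. Col1a2, Col3a1, Twist2 and Prrx1 were at 0 in ES, and none was at 0 over the XEN lines together. Twist2 had 0, 1 and 8 counts in XEN1, XEN2 and XEN5. Thy1 was at 4.29, 4.45 and 4.49 CPM in these lines and at 3.29 and 2.34 CPM in ES2 and ES3. Outside the 7, Twist1 was lower in XEN (1.06 to 1.56 CPM) than in ES (2.88 and 3.12 CPM), and Fap had 0 counts in every mouse line. Col1a2 and Col3a1, which encode fibrillar collagen chains, stood at 34.3, 34.8 and 48.9 CPM and at 25.7, 33.9 and 42.8 CPM in XEN1, XEN2 and XEN5. The summed markers were lower in pXEN than in XEN along with all 7 members that had counts there, and their part in these levels was not tested. They were also lower in ES than in XEN. Their part in the differences of XEN over ES, of members and of the lists below, was likewise not tested. In these bulk samples, fewer cells of a type cannot be told apart from less RNA per cell.

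**Figure D3:**
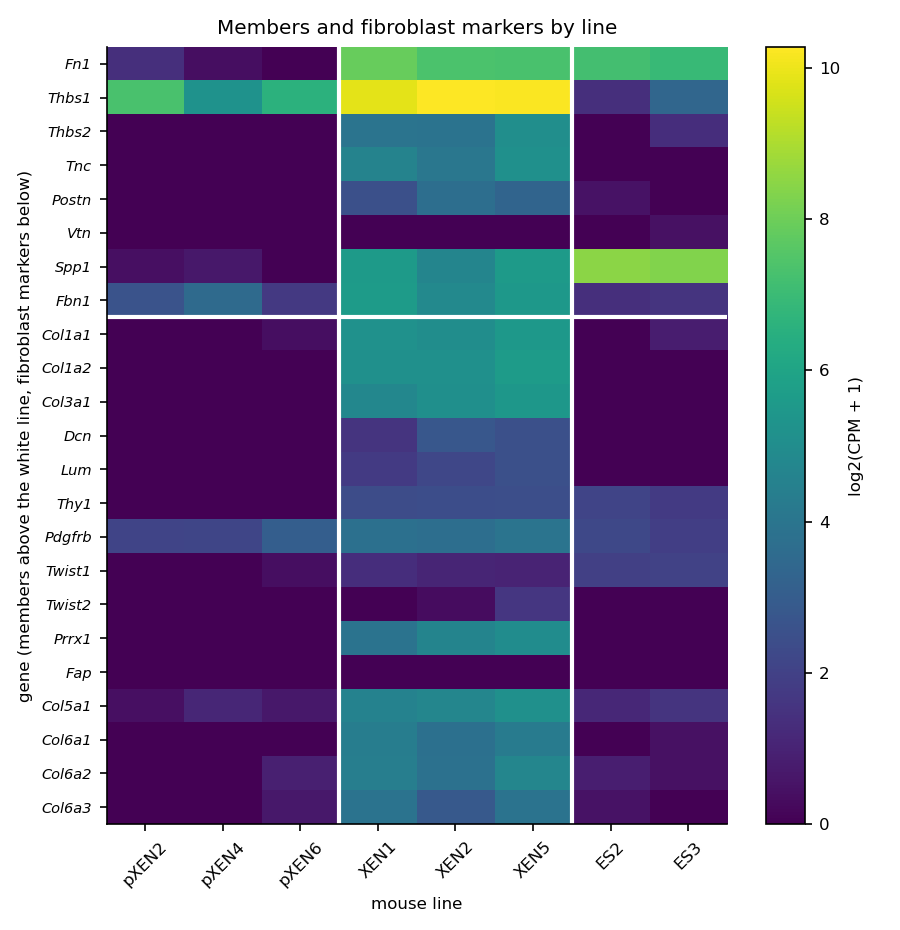
Levels of the 8 members, above the white line, and 15 fibroblast markers, below it, in the 8 mouse lines as log2(CPM + 1). The columns of XEN1, XEN2 and XEN5 are the ones with Col1a2, Col3a1, Prrx1, Tnc and Postn above a few CPM, and Fn1 and Spp1 are also bright in ES2 and ES3.

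Levels of different members were set beside each other per kilobase of exon. In pXEN, Thbs1 had 15.9 ± 10.0 CPM per kb (SD, n = 3), Fbn1 0.505 ± 0.357, Spp1 0.182 ± 0.174 and Fn1 0.0551 ± 0.0753, and the other 4 were at 0. The spreads of Fbn1, Spp1 and Fn1 overlap in that order. In XEN, Thbs1 led with 185 ± 27.0 CPM per kb, followed by Spp1 with 24.2 ± 8.07, Fn1 with 15.9 ± 3.66, Fbn1 with 3.29 ± 0.908, Tnc with 3.17 ± 1.26, Thbs2 with 2.90 ± 1.51 and Postn with 0.981 ± 0.421 (n = 3 each). The neighbours Spp1 and Fn1 overlap, as do Fbn1, Tnc and Thbs2. In ES, Spp1 led with 205 ± 18.1 CPM per kb, before Fn1 with 11.4 ± 1.5 and Thbs1 with 0.906 ± 0.898 (n = 2 each), and the rest were at 0.148 or less. Thbs1 transcripts thus led in both endoderm groups and Spp1 transcripts in ES.

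Promoters were read for members that had counts in XEN and 0 or nearly so in pXEN, because they share that pattern. RefSeq promoter windows of GRCm38.p6 matched 6 of the 8 members and neither Fn1 nor Thbs1. For Thbs2, Tnc, Postn and Spp1 the window nearest to the annotated gene start is given, up to the base before its own start. The 250 bases lie at chr17:14694263-14694512 (minus strand) for Thbs2, chr4:64047016-64047265 (minus strand) for Tnc, chr3:54360857-54361106 (plus strand) for Postn and chr5:104434861-104435110 (plus strand) for Spp1. Capitals mark matches to the letters TATAAA, the core of a TATA box, to ATGCAAAT, the octamer of POU factors such as Oct4, and to AACCACA, a Runx motif, on either strand.
Thbs2: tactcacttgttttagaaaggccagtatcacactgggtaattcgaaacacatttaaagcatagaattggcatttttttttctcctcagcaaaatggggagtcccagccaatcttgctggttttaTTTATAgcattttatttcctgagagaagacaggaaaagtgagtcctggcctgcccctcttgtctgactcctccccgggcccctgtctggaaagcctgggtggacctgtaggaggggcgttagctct
Tnc: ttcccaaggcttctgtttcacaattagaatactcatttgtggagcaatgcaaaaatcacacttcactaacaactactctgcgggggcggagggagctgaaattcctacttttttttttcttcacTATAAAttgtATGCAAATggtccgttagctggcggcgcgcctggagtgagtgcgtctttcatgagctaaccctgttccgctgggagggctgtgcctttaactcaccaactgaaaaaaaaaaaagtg
Postn: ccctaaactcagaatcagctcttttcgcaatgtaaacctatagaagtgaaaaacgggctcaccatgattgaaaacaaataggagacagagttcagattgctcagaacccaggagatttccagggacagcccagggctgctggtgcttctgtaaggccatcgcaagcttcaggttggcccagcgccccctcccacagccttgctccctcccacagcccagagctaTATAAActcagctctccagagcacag
Spp1: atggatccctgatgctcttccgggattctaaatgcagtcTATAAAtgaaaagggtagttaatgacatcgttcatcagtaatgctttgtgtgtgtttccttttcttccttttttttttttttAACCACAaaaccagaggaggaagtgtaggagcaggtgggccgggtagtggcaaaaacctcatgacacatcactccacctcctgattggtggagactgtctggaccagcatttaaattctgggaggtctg
The TATA box match begins 26 bases before the annotated start in Postn, 126 in Tnc and in Thbs2 (there on the other strand) and 211 in Spp1. The octamer begins 116 bases before the start in Tnc, and the Runx match 129 bases before it in Spp1. Both strands were searched, and the AP-1 letters TGANTCA were looked for and are not in these 4 windows. Of 32851 RefSeq windows, 12.37% held the TATA box letters, 1.6% the octamer, 4.4% the Runx motif and 6.75% the AP-1 letters. No match overlaps another in these 4 windows. Of the windows not shown, that of Vtn holds TATA box letters 137 and 135 bases before its start and a second one of Spp1 the octamer 210 bases before its own. A second window of Tnc overlaps the one shown. It holds the TATA box letters 205 and the octamer 195 bases before its own start, so these distances depend on the start used. A match is a run of letters and does not show that a factor binds there.

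Most integrin receptor genes of these ligands did not pass the threshold between pXEN and XEN. Of 14 integrin genes 9 were tested, and in pXEN over XEN none rose and 1 fell (Itga1, a collagen receptor chain, with 1 count in pXEN and 35 in XEN, ratio of XEN over pXEN 35.3, exact 95% counting interval 5.94 to 1434, adjusted p = 0.0197). The call of Itga1 was lost with sex as covariate and without pXEN4 or pXEN6. The median log2 fold change of the list was -0.59, against 0.0 for all genes, of which 0.918% rose and 3.63% fell. Itgb1, the shared beta chain, had 671 ± 138 CPM in pXEN and 802 ± 129 CPM in XEN (SD, n = 3 each), with a log2 fold change of -0.26 (SE 0.21, adjusted p = 0.665). Itga5, the alpha chain of the classical fibronectin receptor, had 92.6 ± 22.7 CPM in pXEN and 118 ± 55.4 CPM in XEN (log2 fold change -0.35, SE 0.34, adjusted p = 0.718). Itgav, the alpha chain for vitronectin and osteopontin, had 91.3 ± 21.2 and 104 ± 2.77 CPM in pXEN and XEN (log2 fold change -0.18, SE 0.24, adjusted p = 0.807). The fitted log2 fold change was negative for each of the 9, and several differences were larger than these. Itga8 had 3 counts in pXEN, all in pXEN4, and 34 in XEN, without overlap of lines (edgeR's adjusted p = 0.127). Its ratio of XEN over pXEN was 11.43 (exact 95% counting interval 3.596 to 58.18). Itga3 was at -0.796 (SE 0.514) and Itgb5 at -0.589 (SE 0.266), neither past the threshold. A p that misses the threshold does not show that the levels of a gene are equal. The chains of the fibronectin receptor thus averaged 92.6 CPM (Itga5) and 671 CPM (Itgb1) in the pXEN lines, which held 6 Fn1 counts in all.

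Against ES, more than 4 of the 9 tested integrin genes rose in each endoderm group. In pXEN over ES 5 of the 9 rose and 1 fell (median log2 fold change 1.08, against -0.0276 for all genes). Of all genes tested, 18.2% rose and 17.8% fell. Itgb1 rose to 671 ± 138 CPM in pXEN, against 281 ± 57.6 CPM in ES (log2 fold change 1.26, SE 0.25, adjusted p = 0.00252, edgeR with Benjamini-Hochberg adjustment). Itga5 rose by a log2 fold change of 1.85 (SE 0.42, adjusted p = 0.00557), with no call without ES3. Itga3, a laminin receptor chain, rose by 3.05 (SE 0.70, adjusted p = 0.00933), with no call without ES2, 2.33 without pXEN2 and 3.91 without ES3. The others that rose were Itgav (1.08, SE 0.28) and Itga6 (1.46, SE 0.40), named to complete the count after their values were seen, with no call without ES2 (both) or ES3 (Itga6). Itga9, a receptor chain for tenascin C and osteopontin, fell to 0 counts in pXEN, against 46 counts in ES, at least 30.7-fold lower (adjusted p = 0.000694). In XEN over ES 7 of the 9 rose and Itga9 fell (median 1.74, against 0.0015 for all genes, of which 20.7% rose and 17.8% fell). There Itgb1 rose by 1.51 (SE 0.25), Itga5 by 2.20 (SE 0.42) and Itga3 by 3.84 (SE 0.72), with adjusted p of 0.00095, 0.00243 and 0.00356, and Itga9 had 3 counts in XEN, against 46 in ES. Without ES3 the value of Itga3 was 4.70.

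Among 12 other cell-surface receptors, 9 were tested, and in pXEN over XEN 4 fell and none rose (median log2 fold change -2.06, against 0.0 for all genes). Of all genes tested, 3.63% fell and 0.918% rose. Sdc2, a heparan sulphate syndecan, had 1 count in pXEN and 71 in XEN (ratio of XEN over pXEN 71.6, exact 95% counting interval 12.5 to 2868, adjusted p = 0.00287). Lrp1, which clears thrombospondin complexes, fell to 2.09 ± 1.30 CPM in pXEN, against 14.7 ± 5.55 CPM in XEN (log2 fold change -2.78, SE 0.50, adjusted p = 0.00887). Sdc3 fell by 3.78 on the log2 scale (SE 0.70, adjusted p = 0.00949), and by more without pXEN4 (-4.67). Egfr, to which tenascin C repeats bind, completed the 4 with 1 count in pXEN and 54 in XEN (adjusted p = 0.0287) and was named after its value was seen; its call was lost without XEN1 or any of the pXEN lines. The fibroblast markers were lower in pXEN along with these genes, with summed levels of 3.62 to 10.0 CPM in pXEN and 209 to 289 in XEN, and their part was not tested. Cd44, the osteopontin receptor, had 14.3 ± 12.6 CPM in pXEN and 59.2 ± 37.6 CPM in XEN and was not past the threshold (log2 fold change -2.06, SE 0.96, adjusted p = 0.385). Cd36 and Cd47, which Thbs1 binds, did not pass the low-count filter. In pXEN, XEN and ES, Cd36 had 0, 2 and 0 counts and Cd47 had 0, 28 and 12. In pXEN over ES 2 rose and 2 fell (list median -0.31), where 18.2% of all genes rose and 17.8% fell. Plaur, the urokinase receptor that also binds vitronectin, rose by 3.02 (SE 0.32, adjusted p = 4.86e-05). Sdc4, a fibronectin co-receptor, rose by 1.41 (SE 0.30, adjusted p = 0.00363). Sdc2 and Lrp1 fell (adjusted p = 0.00081 and 0.00122). Against ES, 3 rose and none fell in XEN (list median 1.01), where 20.7% of all genes rose and 17.8% fell. They were Plaur (2.55, SE 0.32), Sdc4 (1.01, SE 0.29) and Cd44 (5.58, SE 1.56), with adjusted p of 0.000157, 0.0195 and 0.0278. Cd44 lost its call without a filter on low counts and without either ES line (6.19 without ES2), with 4.92 without XEN5, and Sdc4 lost its call without XEN2 or ES2.

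**Figure D4:**
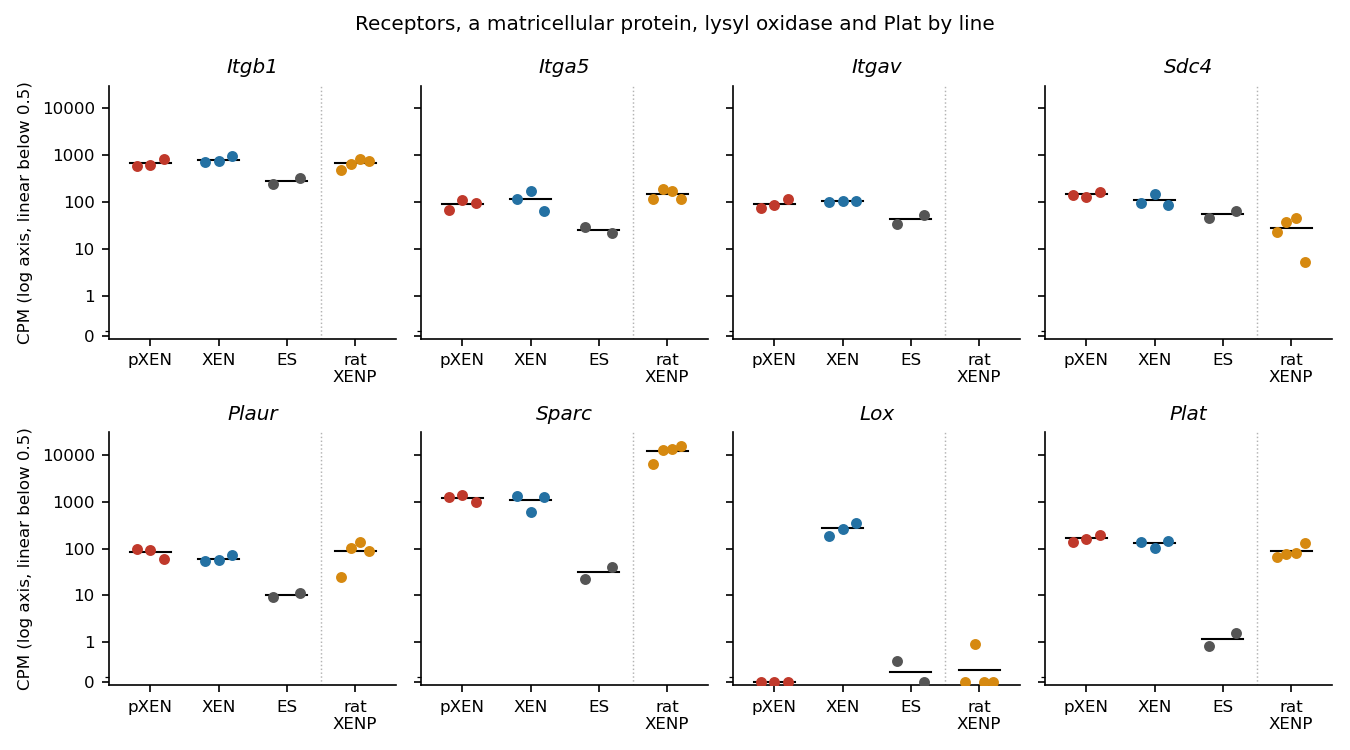
Levels of receptors (Itgb1, Itga5, Itgav, Sdc4, Plaur), the matricellular protein Sparc, lysyl oxidase (Lox) and tissue plasminogen activator (Plat) in every line, as CPM on an axis that is logarithmic above 0.5; points are lines, bars group means, and the dotted line separates rat from mouse. The receptors shown lie close together in pXEN and XEN, but Sdc2, Sdc3, Lrp1, Egfr and Itga1, not shown, were called lower in pXEN. Lox is at 0 in pXEN against a mean of 269 CPM in XEN, and Plat lies at a mean of 166 CPM in pXEN against 128 CPM in XEN. Itgav has no rat row.

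Other matricellular genes were in part abundant in pXEN and in part at 0 there. Of 22 genes 14 were tested, and in pXEN over XEN 1 rose and 4 fell (median log2 fold change -1.97, against 0.0 for all genes). Of all genes tested, 0.918% rose and 3.63% fell. The 4 that fell had 0 counts in pXEN and passed the low-count filter through XEN, so their count is a description. Sparc, a collagen-binding protein abundant in parietal endoderm, had 1207 ± 202 CPM in pXEN and 1077 ± 414 CPM in XEN (log2 fold change 0.16, SE 0.31, adjusted p = 0.889). Ctgf had 933 ± 374 CPM in pXEN and 1035 ± 312 CPM in XEN (log2 fold change -0.15, SE 0.33, adjusted p = 0.912). Its relatives Wisp1, Wisp2 and Nov each fell to 0 counts in pXEN, against 187, 54 and 45 counts in XEN, at least 59.9-fold, 17.7-fold and 14.9-fold lower (adjusted p = 0.00104, 0.00789 and 0.00857). Thbs4, a thrombospondin of tendon, also fell to 0 counts, against 33 in XEN (adjusted p = 0.0161), and was named after its value was seen. Fndc1, which has fibronectin type III repeats, rose to 5.79 ± 1.60 CPM in pXEN, against 0.709 ± 0.133 CPM in XEN (log2 fold change 2.97, SE 0.62, adjusted p = 0.0184), a call lost with sex as covariate and without pXEN6 or any of the XEN lines. The fibroblast markers moved with Wisp1, Wisp2, Nov and Thbs4 as well, and their part was not tested.

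Against ES, 4 of these 14 rose and 1 fell in pXEN (median 0.14, against -0.0276 for all genes). Of all genes tested, 18.2% rose and 17.8% fell. Sparc rose by a log2 fold change of 5.25 (SE 0.45, adjusted p = 2e-05) and Ctgf by 3.63 (SE 0.43, adjusted p = 0.000161), and Spock1, a proteoglycan, had 722 counts in pXEN and 2 in ES (ratio 180, exact 95% counting interval 49.6 to 1487, adjusted p = 0.0145, lost without either ES line). The 4 were completed by Fndc1 (59 counts in pXEN and 5 in ES, adjusted p = 0.0178, lost without ES2), named after its value was seen. Thbs3, another thrombospondin, fell to 3 counts in pXEN, against 25 in ES (adjusted p = 0.00578). In XEN 9 rose against ES and none fell (median 3.25), where 20.7% of all genes rose and 17.8% fell. The 9 were led by Sparc (5.09, SE 0.45, adjusted p = 2.48e-05) and Ctgf (3.78, SE 0.44, adjusted p = 0.00015). Wisp1 came next (187 counts in XEN and 1 in ES, adjusted p = 0.000772). It passed the low-count filter through XEN, so the count of 9 is a description. The fibroblast markers were also higher in XEN than in ES, and their part was not tested. None of the 4 other genes of the osteopontin family of bone and tooth proteins passed the filter.

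Of 22 genes of the fibrillin microfibril and elastic fibre 21 had a row and 16 were tested. In pXEN over XEN 11 of the 16 fell and none rose (median log2 fold change -3.95, against 0.0 for all genes). Of all genes tested, 3.63% fell and 0.918% rose. Several of the 11, such as Lox and Eln, had 0 counts in pXEN and passed the low-count filter through XEN. Nothing is therefore read from this count and median. Lox, which cross-links collagen and elastin, had 0 counts in pXEN, against 2771 counts and 269 ± 82.2 CPM in XEN (SD, n = 3), at least 898-fold lower (adjusted p = 1.49e-05). Eln, elastin itself, fell to 0 counts, against 149 in XEN, at least 47.3-fold lower (adjusted p = 0.00189). Ltbp1, which ties latent TGF-beta to fibrillin, fell to 2 counts, against 89 in XEN (ratio of XEN over pXEN 44.9, exact 95% counting interval 12.1 to 376, adjusted p = 0.00184). Fbln2 and Efemp2, 2 fibulins, were not past the threshold, with 42.4 ± 18.5 and 19.4 ± 9.36 CPM in pXEN and 27.8 ± 16.9 and 19.8 ± 13.1 CPM in XEN (adjusted p = 0.66 and 1.0). Of the 11 that fell, Fbln1, Ltbp4 and Fbln5, named after their values were seen, lost their calls in some alternatives. Fbln1 lost it without a filter, with the compared groups alone, and without pXEN2, pXEN4, XEN1 or XEN2, Ltbp4 with sex as covariate and without pXEN2, pXEN4, XEN1 or XEN5, and Fbln5 without pXEN4 or XEN5. The fibroblast markers summed to 3.62 to 10.0 CPM in pXEN and 209 to 289 CPM in XEN. They were thus lower in pXEN along with the genes that fell, though not with Fbln2 and Efemp2, and their part was not tested.

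In pXEN over ES 4 of the 16 rose and 3 fell (median -1.86, against -0.0276 for all genes). Of all genes tested, 18.2% rose and 17.8% fell. Fbln2 had 418 counts in pXEN and 2 in ES (ratio 104, exact 95% counting interval 28.6 to 862, adjusted p = 0.000694), Efemp2 rose by a log2 fold change of 2.89 (SE 0.72, adjusted p = 0.01) and Adamts10, a protease of microfibrils, by 2.26 (SE 0.63, adjusted p = 0.0163). The last 2 were lost without either ES line. Tgfb3 completed the 4, with 11 counts in pXEN and 0 in ES, and was named after its value was seen; its call was lost with DESeq2, with sex as covariate and without pXEN6 or either ES line. Ltbp4, Eln and Fbln1 fell, with 3, 0 and 14 counts in pXEN, against 165, 8 and 88 in ES (adjusted p = 5.36e-05, 0.0148 and 0.0165), of which Eln lost its call without ES2 and Fbln1 without a filter on low counts and without pXEN2, pXEN4 or either ES line. XEN had 12 that rose against ES and 1 that fell (median 2.91), where 20.7% of all genes rose and 17.8% fell. Lox had 2771 counts in XEN and 1 in ES (adjusted p = 8.88e-06), Tgfb3 111 and 0 (adjusted p = 0.000683) and Fbln2 286 and 2 (adjusted p = 0.00133), while Ltbp4 fell by 3.41 on the log2 scale (SE 0.54, adjusted p = 0.00072). Genes such as Lox passed the low-count filter through XEN, so the count of 12 is a description. The fibroblast markers were also higher in XEN (209 to 289 CPM) than in ES (12.3 and 11.7 CPM), and their part was not tested.

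Proteases, inhibitors and partners that act on these proteins were the last list, with 9 of 16 genes tested. In pXEN over XEN 4 fell and none rose (median log2 fold change -2.97, against 0.0 for all genes). Of all genes tested, 3.63% fell and 0.918% rose. Plat, tissue plasminogen activator, was not past the threshold, with 166 ± 27.5 CPM in pXEN and 128 ± 21.0 CPM in XEN (SD, n = 3 each; log2 fold change 0.38, SE 0.22, adjusted p = 0.48). Mmp2, a gelatinase, fell by 5.77 on the log2 scale (SE 0.59, adjusted p = 0.000274; -7.24 without pXEN6) and Adamts1, a protease that cleaves thrombospondins, fell by 5.49 (SE 0.98, adjusted p = 0.0114, lost without pXEN4). The value of Adamts1 was -6.67 without pXEN6 and -4.45 without XEN2. Fam20c, the kinase that phosphorylates osteopontin, had 1 count in pXEN and 35 in XEN (adjusted p = 0.032) and was named after its value was seen; its call was lost with sex as covariate and without any of the pXEN lines. Fibroblast markers were likewise lower in pXEN along with the genes of this list that fell, and their part was not tested. In pXEN over ES 3 rose and 2 fell (list median -1.41), where 18.2% of all genes rose and 17.8% fell. Plat rose by 7.07 (SE 0.40, adjusted p = 1.65e-06), Bmp1 by 3.48 (SE 0.63, adjusted p = 0.00171) and Furin by 2.45 (SE 0.55, adjusted p = 0.00679). Among the 2 that fell was Mmp2, by 4.65 (SE 0.64, adjusted p = 0.000266). Without ES3 Bmp1 was at 4.42 and Furin at 3.66, without ES2 Furin was at 1.82, and without pXEN6 Mmp2 was at -6.12. In XEN over ES 5 rose and none fell (list median 2.92), where 20.7% of all genes rose and 17.8% fell. Among the 5 were Plat (6.69, SE 0.40, adjusted p = 1.84e-06) and Bmp1 (4.05, SE 0.63, adjusted p = 0.000753, and 4.99 without ES3).

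The genes whose pattern over the 8 mouse libraries was most like that of Fn1 had lower mean levels in pXEN than in XEN and ES. By Pearson's r of log2 CPM among 9187 genes with a mean of at least 5 CPM, they were Pnpla2 (r = 0.981), Gas6 (0.975), Dusp1 (0.973), Plekhb2 (0.972), Sft2d2 (0.967) and Usp33 (0.967). Gas6, the vitamin K-dependent ligand of the Axl receptors, had 0.190 ± 0.329 CPM in pXEN, 21.3 ± 2.85 CPM in XEN and 23.2 ± 9.09 CPM in ES. Dusp1, a MAP kinase phosphatase, had 9.60 ± 2.24 CPM in pXEN, 67.8 ± 8.07 CPM in XEN and 49.5 ± 4.91 CPM in ES. Pnpla2, a triglyceride lipase, averaged 2.89 CPM in pXEN, against 6.99 CPM in XEN and 7.80 CPM in ES lines, and Usp33 had means of 10.1 CPM in pXEN, against 18.0 CPM in XEN and 17.4 CPM in ES lines, so a high r does not mean a level near 0 in pXEN. The libraries share group and culture, so the correlations describe the group pattern, and with Spearman's rank correlation 0 of the 6 genes were the same. For Tnc the most alike were Col1a2 (r = 0.998), S100a4 (0.996) and Col3a1 (0.995), for Thbs2 Wisp1 (0.984), Col1a1 (0.984) and Col5a1 (0.982), and for Postn Ogn (0.99), Col5a2 (0.99) and Inhba (0.988). Several of these are themselves fibroblast markers of the list above. For Thbs1 they were Tpm1 (0.983), Fam172a (0.98) and Herpud1 (0.979), for Spp1 Ccnd1 (0.988), Tm7sf3 (0.983) and Igfbp2 (0.982), and for Fbn1 Gpx8 (0.97), Frmd8 (0.962) and Ephb2 (0.962). No gene was among the most alike of more than 1 member.

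In the rat XENP lines, Fn1 was read in every line and Thbs2, Tnc, Postn, Vtn and Spp1 in none. Fn1 had 49 and 32 counts in the WKY lines CX1 and MAX8 and 21 and 37 in the F344 lines MAX2 and MAX3, or 39.4, 28.6, 19.4 and 35.3 CPM of all gene counts. That is 30.7 ± 8.75 CPM (SD, n = 4), a level above 38.5% to 55.8% of detected genes of the same library. Without CX1, a choice made after seeing the data, the mean was 27.8 ± 7.99 CPM (n = 3). Thbs1 had 6 and 21 counts in CX1 and MAX8 and 26 and 5 in MAX2 and MAX3. The lines with the higher counts, MAX2 and MAX8, are the female ones and the lines with the lower counts the male ones, a split seen after the fact in 4 lines and not tested. Fbn1 had 5 and 3 counts in the WKY lines and 3 and 5 in the F344 lines (3.56 ± 1.01 CPM). For each of the 5 genes at 0, the limit that 3 counts over the group allow is 0.668 CPM. Species, genome, annotation and line change together between rat and mouse, so no fold is given between them. With multimapping reads left uncounted, a gene with a near copy may also read low in rat.

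The strain comparison is one the choice of members did not use, with 2 WKY against 2 F344 lines. Only Fn1 and Thbs1 passed the filter there. The log2 fold change of WKY over F344 was 0.30 for Fn1 (SE 0.41, adjusted p = 0.967, means 34.0 and 27.4 CPM) and -0.32 for Thbs1 (SE 0.91, adjusted p = 0.981, means 11.8 and 14.4 CPM), by edgeR's quasi-likelihood test, Benjamini-Hochberg adjusted. Over the 9 alternatives Fn1 ranged from -0.07 (without MAX2) to 0.79 (without MAX3) and Thbs1 from -1.60 (without MAX8) to 1.26 (without MAX2), so the direction of both turns on which line is in. Neither was past the threshold, which 0.0129% of the 7769 genes tested passed in either direction, 1 gene with 352 at an unadjusted p under 0.05. The lines of a strain overlap for both genes. Fibroblast markers were sparse in rat: 3 of the 13 with a row had counts, with a summed level of 3.82 to 11.6 CPM, and Col1a1, Col1a2, Col3a1, Thy1, Twist2 and Prrx1 were at 0.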

How the data were processed

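Total RNA was depleted of ribosomal RNA and strand-specific libraries were sequenced as paired ends, per the labels' protocols. For each line the authors deposited whole-number read counts of every gene, in columns for no strand, the gene's strand and the reverse strand, per the file headers. The submitters' processing notes list STAR 2.5.1, Trimmomatic 0.33, CASAVA 1.8.2 and DESeq2 with the builds rn6 and mm10, and give no roles. The annotation was not given in the sources at hand. Tables of pXEN lines carry the name XENP, and the group was taken from title and cell type. Reverse-strand counts were used (98.9% to 99.3% of stranded counts). Read classes not assigned to a single gene, 73.4% to 78.3% of reads in mouse and 89.7% to 91.8% in rat, were left out of library sizes. The classes were summed together, so this share does not tell how many reads lay outside genes.

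All 8 mouse libraries were fitted together, and the 4 rat libraries by strain, with edgeR 4.0.16 under R 4.3.3 (TMM scaling, filterByExpr with minimum count 10, robust glmQLFit and glmQLFTest), after a check on simulated counts. P-values were adjusted by Benjamini-Hochberg over all genes tested, with the threshold 0.05. The SE of a log2 fold change is its size divided by the square root of F. Mouse CPM refer to the TMM-scaled library, and rat CPM to the sum of gene counts. Replicates are separately derived lines, so the spread is that between lines. Coordinates and exon lengths are from GENCODE vM21. The named genes are the 8 members, up to 3 called genes with the smallest p per list, direction and comparison, and the genes most like each member (6 for Fn1, 3 for others; log2 CPM with prior count 2). Genes that complete a small count, or that stand for a receptor or partner without a call, were added after their values were seen. A gene that this rule names is not reported here. The members and lists were chosen with earlier results of these data known. A list gene near 0 in 1 group passed the low-count filter through another, so counts and medians of the lists are a description. Alternatives were RLE and upper-quartile scaling, DESeq2 1.42.0, no filter, unstranded counts, removal of Rn45s, the compared groups alone, sex as covariate and leaving out each line. No rat genome was used.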

Additional observations from a re-analysis of the deposited data

Results flagged for a closer look

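Among the 4 rat XENP lines, the summed level of pluripotency markers was 163 CPM in CX1, against 6.25 to 8.32 CPM in the other lines, a gap that took 0.987 of the range. Only 1 of the 5 markers with a rat row had counts, so this sum is the level of 1 gene. CX1 was also the only rat line with counts for a defining fibroblast marker, at 0.805 CPM in CX1 and 0 in the other lines. This is 1 read, and with the rest at 0 the gap takes 1.0 of the range whatever its size. Over all 13 fibroblast markers with a rat row, MAX8 was highest with 11.6 CPM, against 6.44 CPM in CX1. Such gaps were looked for with Dixon's 95% criterion in 17 sets of 4 rat values, and chance gives about 1 in 20 sets one. Thbs2, Tnc, Postn, Vtn, Spp1 and Spock1 were at 0 in all 4 lines, so their sets could hold no gap and this rate does not cover them. Of the members with rat counts, Fn1, Thbs1 and Fbn1, none had such a gap. Fn1 averaged 27.8 CPM without CX1 and 30.7 CPM with it.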

How the results depend on the processing

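No paired analysis was possible because the groups compared share fewer than 2 line numbers, which name lines. In pXEN over XEN, 100 genes were higher and 396 lower. DESeq2 called 155 and 476. Leaving out a line gave 63 (without XEN1) to 86 higher and 255 (without pXEN2) to 362 lower. In pXEN over ES the range was 1168 (without ES2) to 1818 higher and 1358 to 1761 lower, around 1978 and 1936. In XEN over ES it was 1277 (without ES2; 1463 without ES3) to 2158 higher and 1197 (without ES2; 1262 without ES3) to 1834 lower, around 2251 and 1937. Upper-quartile scaling moved the median of all genes by -0.11 in pXEN over ES and in XEN over ES, against 0.0004 in pXEN over XEN.

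For rat strains, with 0 higher and 1 lower, DESeq2 called 7 and 15, and the fit without a filter 7 and 14. Leaving out a line gave 0 to 592 higher and 0 to 768 lower: 592 and 768 without MAX8, 130 and 153 without CX1, and 0 and 0 without MAX2 or without MAX3. The strain then left with 1 line is assumed to vary like the other. The cause of these shifts was not tested.

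Of 146 recomputed mouse member fold changes 10 moved by more than their SE, each on leaving out a line. In rat, where neither was called, Fn1 changed sign in 1 and Thbs1 in 2 of 9 alternatives. Fn1 in pXEN over XEN ranged from -9.99 to -7.59. Of 90 list calls between mouse groups, 38 were lost in at least 1 alternative, and of 1173 recomputed ones 97 were lost. The order of members by CPM without exon length put 2 members of pXEN, 3 of XEN and 2 of ES in another place. For lower bounds, the floor was set at 3 counts over the group, which is 0.299 CPM in pXEN. This floor is a chosen limit, and single lines could read below it, such as pXEN4 with 0.285 CPM of Fn1.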

Other observations

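Some list genes stood high in one of rat XENP and mouse pXEN, which share their culture, and had 5 counts or fewer in the other. They were chosen after their values were seen, as those with a mean of at least 50 CPM in one and under 5 CPM in the other, and the difference was not tested since species and annotation change with it. Mfap5, a microfibril protein that binds fibrillin-1, had 823 ± 314 CPM in XENP (SD, n = 4; 431 to 1198 over the lines) and 5 counts in all 3 pXEN lines. Itga4, an alpha chain that binds fibronectin and VCAM-1, had 132 ± 64.5 CPM in XENP and 0 counts in pXEN. Itgb6, which pairs with alpha v to bind RGD ligands and latent TGF-beta, had 75.7 ± 33.1 CPM in XENP and 1 count in pXEN. Adamts1, the protease that cleaves thrombospondins, had 106 ± 47.9 CPM in XENP and 4 counts in pXEN. Spock1, the proteoglycan, went the other way, with 0 counts in XENP and 70.8 ± 35.4 CPM in pXEN (n = 3). In the mouse XEN lines, Itga4 had 1 count, Itgb6 14 and Mfap5 8, while Adamts1 had 202 counts (19.5 ± 17.3 CPM) and Spock1 averaged 114 ± 128 CPM (n = 3 each).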
